A study of Aspergillus nidulans with 12 samples.

Results

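The 4 genes described here encode iron-sulfur (Fe-S) proteins of biosynthesis and of mitochondria in the filamentous fungus *Aspergillus nidulans*. They were taken by gene identifier from the deposited table of 10988 genes, with earlier results of these data known: *lysF* (AN6521), *bioB* (AN6643), *aifA* (AN9103) and AN11251. All 4 were present, and all 4 passed the filter on low counts that left 9070 genes for testing, although AN11251 passed it only through the treated libraries. The study compared the THS30 reference strain (pyrG89; AfupyrG+; pyroA4; pyroA+) with the TNJ92 Δ*atfA* mutant (pyrG89; AfupyrG+; pyroA4; Δ*atfA*::pyroA), so the strains share the pyrG89 and pyroA4 alleles and differ in where pyroA was restored. AtfA is a bZIP transcription factor of the stress response. Mycelia were grown in submerged Barratt's minimal broth, to which yeast extract was added according to the labels, for 16 h at 37 °C, then received CdCl2 to 0.2 mM or nothing, and were sampled 0.5 h later. Each of the 4 groups (untreated THS30, CdCl2-treated THS30, untreated TNJ92, CdCl2-treated TNJ92) had 3 biological replicates, which makes 12 RNA-seq libraries. A single deletion strain was sequenced, without a complemented strain.

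Fe-S clusters are cofactors of iron and sulfide, usually held by cysteine residues, that carry electrons or bind substrates. They are assembled in mitochondria on scaffold proteins with sulfur from a cysteine desulfurase, and a further machinery supplies the proteins of the cytosol and nucleus. Cadmium binds thiol groups and is known to disturb clusters and their assembly. *lysF* encodes homoaconitate hydratase of the α-aminoadipate pathway, by which fungi make lysine; the enzyme is a relative of aconitase, and the annotation used by the study gives it as negatively regulated by the CCAAT-binding complex AnCF. The *bioB* product is a putative biotin synthase, which inserts sulfur into dethiobiotin and in *Escherichia coli* belongs to the radical S-adenosylmethionine enzymes. *aifA* encodes a putative mitochondrial oxidoreductase resembling the apoptosis-inducing factor of animals and is annotated as binding a 2Fe-2S cluster. AN11251 has domains annotated for 4Fe-4S binding and NADH dehydrogenase (ubiquinone) activity, the reaction of respiratory complex I, and has no gene name in the files.

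Library totals ran from 8721119 to 13641031 counts. The deleted gene *atfA* (AN2911) lay between 232 and 357 CPM (counts relative to the library size, scaled by the trimmed mean of M values, TMM) in the THS30 libraries and between 17.3 and 27.4 CPM in the TNJ92 libraries, so every library matched the strain of its label; the treatment had no such marker, and where in the gene the remaining reads of TNJ92 lie was not analysed here. The hydrophobin gene *rodA* (AN8803) and the conidial pigment gene *wA* (AN8209), which are markers of conidia, had at most 57.1 and 15.5 CPM in any library, against at least 2209 CPM of the actin gene *actA* (AN6542). *rodA* was not uniform within groups: in untreated TNJ92 it had 1.75, 19.6 and 57.1 CPM in replicates 1 to 3. Replicates differed by more than sampling noise in every group, with a chi-square per degree of freedom between replicates of 3.72 to 27.8. The largest value was that between untreated TNJ92 replicates 1 and 3, which were at 12.6 and 12.4 from replicate 2. Treated TNJ92 replicates 1 and 3 were at 18.5 from each other, and each at 11 from replicate 2. CdCl2-treated THS30 replicate 3 stood apart, at 22.1 and 16.5 from the other replicates of its group, which were at 3.72 from each other. The THS30 responses of *lysF*, *lysB*, *bioB*, *bioDA*, *aifA*, *cpcA*, *hapB*, *hapE* and *hapX* are therefore given with and without it. Those of the other genes, *acoA* and AN3894 among them, are given only with it. In libraries of whole mycelia, fewer cells that express a gene and less RNA of it per cell cannot be told apart.

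Per unit of transcript length, the 4 genes were expressed at very different levels. In untreated THS30, the deposited RPKM values (reads per kilobase of transcript, scaled to the library total) averaged 99.9 ± 7.45 for *bioB* (SD, n = 3), 90.2 ± 5.24 for *aifA*, 37.7 ± 1.42 for *lysF* and 0.772 ± 0.208 for AN11251. The order differed in untreated TNJ92, where *lysF*, with 62.1 ± 2.69 RPKM, stood above *aifA*, with 31.2 ± 1.45 RPKM. *bioB* was the most abundant of the 4 transcripts in each of the 4 groups, with the highest mean in untreated TNJ92 (207.5 ± 18.5 RPKM), and AN11251 the least abundant, with the highest mean in CdCl2-treated TNJ92 (7.59 ± 1.41 RPKM). Within each group, the replicate ranges of RPKM of the 4 genes did not overlap.

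**Figure D1:**
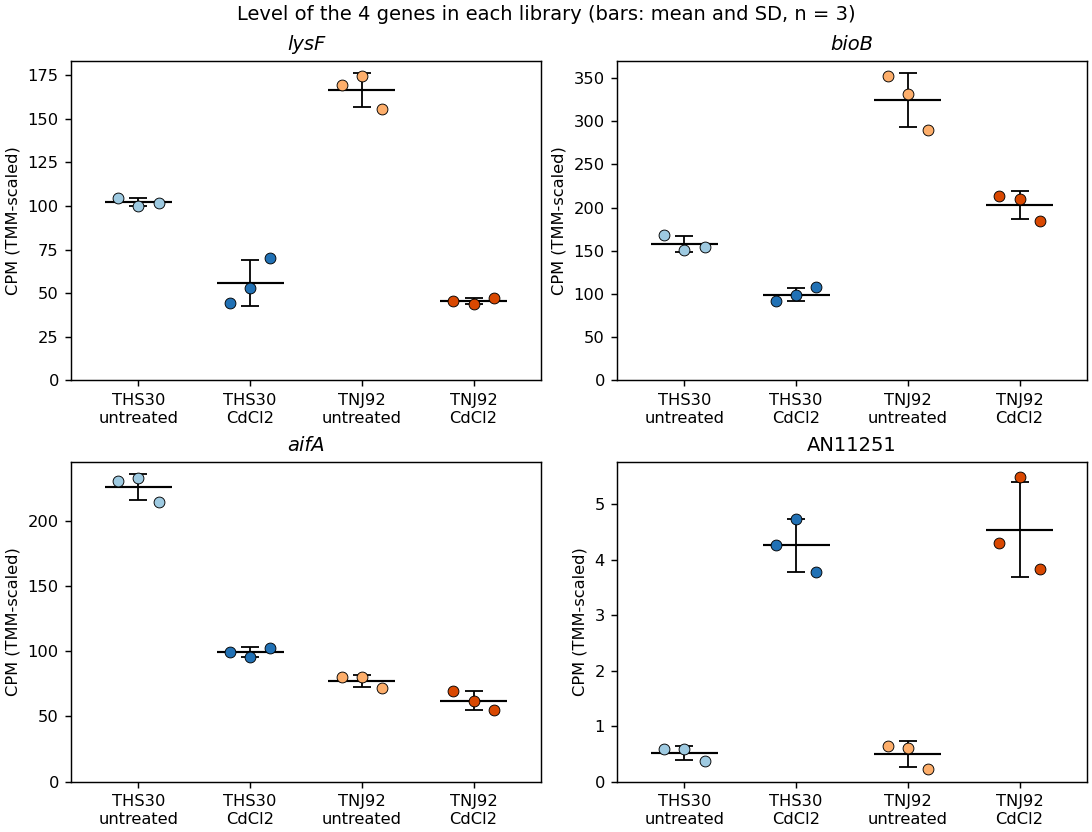
TMM-scaled CPM of *lysF*, *bioB*, *aifA* and AN11251 in each of the 12 libraries, by group; points are libraries, horizontal lines the mean and bars the SD (n = 3), and each vertical axis starts at 0 with its own scale. The treated libraries lie below the untreated ones of the same strain for *lysF*, *bioB* and *aifA*, and above them for AN11251. The share of all genes with libraries so separated was not counted.

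With CdCl2, *lysF*, *bioB* and *aifA* were down-regulated and AN11251 was up-regulated, and each of these calls was made in both strains. The tests were those of edgeR's quasi-likelihood method, with Benjamini-Hochberg adjustment over all 9070 genes and 0.05 as the threshold of the adjusted p. Of all genes tested, 22.5% rose and 21.5% fell in THS30, and 28.3% rose and 28.2% fell in TNJ92. This balance depended on the scaling: with library totals in place of TMM, 30.6% rose and 14.9% fell in THS30, and 36.5% and 20.2% in TNJ92. A call on a single gene was therefore common in these data, and the sizes of the changes tell more than the calls. How many of all genes had treated and untreated libraries without overlap was not counted, so such separations are given below as descriptions only. The responses of the strains differed for *lysF*, which fell more in TNJ92, and for *aifA*, which fell more in THS30. For *bioB* and AN11251 no difference between the responses was called. This difference, TNJ92 response minus THS30 response, was called above 0 for 13.2% and below 0 for 13.6% of all genes.

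*lysF* fell in both strains, and more steeply without AtfA. Its values were 104.5, 100.1 and 101.7 CPM in untreated THS30 (replicates 1 to 3) and 44.2, 52.8 and 70.5 CPM in CdCl2-treated THS30. In TNJ92 they were 169, 175 and 155 CPM without CdCl2 and 45.8, 43.9 and 47 CPM with it. The untreated TNJ92 libraries were the highest of all, the treated and untreated ranges were apart in each strain, and the treated libraries of the strains overlapped. Replicate 3 was the highest of the treated THS30 libraries.

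The log2 fold change of *lysF* with CdCl2 was -0.87 ± 0.12 in THS30 (standard error; adjusted p = 3.06e-05, edgeR), and -1.13 without CdCl2-treated THS30 replicate 3. In TNJ92 it was -1.87 ± 0.12 (adjusted p = 3.69e-09, edgeR), which is a level 3.65 times lower. The difference between these responses was -1.0 ± 0.17 (95% confidence interval -1.36 to -0.64; adjusted p = 0.000439, edgeR). Without CdCl2-treated THS30 replicate 3 the difference was -0.76 and kept its call (adjusted p = 0.000308, edgeR).

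Between the strains, *lysF* was 1.63-fold higher in untreated TNJ92 (log2 fold change 0.71 ± 0.12; adjusted p = 7.1e-05, edgeR), in a comparison where 32% of all genes were higher and 29.6% lower in TNJ92. After CdCl2, the value was -0.29 ± 0.12 (95% confidence interval -0.55 to -0.03) and did not pass the threshold (adjusted p = 0.0535, edgeR). This value depended on single libraries: without CdCl2-treated THS30 replicate 1 it was -0.43 and passed the threshold (adjusted p = 0.00416, edgeR), and without replicate 3 of that group it was -0.07 (adjusted p = 0.546, edgeR). The higher level of *lysF* in untreated TNJ92 was thus not seen after CdCl2.

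Other lysine genes did not all move as *lysF* did. In the same pathway, *lysB* (AN5206), which encodes homoisocitrate dehydrogenase, the enzyme that follows *lysF*, had 136, 149 and 174.5 CPM in untreated THS30, 86.9, 98.0 and 134 CPM in treated THS30, 330.3, 342 and 323 CPM in untreated TNJ92, and 128, 113 and 137 CPM in treated TNJ92. As for *lysF*, its untreated TNJ92 libraries were the highest and its treated libraries of the strains overlapped. *lysB* fell by 0.53 ± 0.13 on the log2 scale in THS30 and by 1.40 ± 0.13 in TNJ92, with a difference of -0.87 ± 0.19 between the responses (adjusted p = 0.00305, edgeR). Replicate 3 was the highest treated THS30 library here too, and without it the THS30 response was -0.79 and the difference -0.63 (adjusted p = 0.0041, edgeR). The saccharopine dehydrogenase genes of the last steps, named *lys9* (AN5601) and *lys1* (AN2873) after *Saccharomyces cerevisiae*, instead rose with CdCl2 in both strains. Their log2 fold changes were 0.41 ± 0.10 and 0.47 ± 0.10 in THS30 and 0.35 ± 0.10 and 0.84 ± 0.10 in TNJ92. *cpcA* (AN3675), the bZIP activator of amino acid synthesis, had 0.21 ± 0.11 and -0.11 ± 0.11 with CdCl2, and neither value passed the threshold; without CdCl2-treated THS30 replicate 3 the first was 0.28 and passed it (adjusted p = 0.0227, edgeR). These genes were looked up by their RefSeq symbols, and lysine genes without such a symbol were not analysed here.

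*bioB* was lower after CdCl2 in both strains and higher in TNJ92 in both conditions. The libraries had 168, 151 and 154 CPM in untreated THS30 and 91.9, 98.3 and 108 CPM in treated THS30. In TNJ92 they had 352, 331 and 289.9 CPM without CdCl2 and 213, 210.3 and 184 CPM with it. None of the 4 groups overlapped another, and even the treated TNJ92 libraries stood above every untreated THS30 library.

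The response of *bioB* to CdCl2 was -0.67 ± 0.10 in THS30 (standard error; adjusted p = 3.52e-05, edgeR), or -0.79 without CdCl2-treated THS30 replicate 3, and -0.68 ± 0.09 in TNJ92 (adjusted p = 9.96e-06, edgeR). The responses differed by -0.01 ± 0.13, with a 95% confidence interval from -0.29 to 0.27 (adjusted p = 0.969, edgeR), and by 0.091 without that library (adjusted p = 0.652, edgeR). TNJ92 had 2.05-fold the level of THS30 without CdCl2 (log2 fold change 1.04 ± 0.09; adjusted p = 6.17e-08, edgeR) and 2.04-fold with it (1.03 ± 0.10; adjusted p = 8.62e-08, edgeR). Between the treated strains, 27.8% of all genes were higher and 27.8% lower in TNJ92.

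The gene next to *bioB*, *bioDA* (AN6644), carries the steps before biotin synthase: its product joins the enzymes that make diaminopelargonic acid and dethiobiotin. *bioDA* had 200.5, 208 and 206 CPM in untreated THS30 and 121, 119.6 and 148 CPM in treated THS30. In TNJ92 its libraries had 212, 228 and 218 CPM without CdCl2 and 128, 131 and 147 CPM with it. The treated libraries lay below the untreated ones in each strain, and the treated ranges of the strains overlapped. *bioDA* fell with CdCl2 by 0.66 ± 0.09 in THS30 and by 0.69 ± 0.09 in TNJ92 on the log2 scale, and its THS30 value was -0.83 without CdCl2-treated THS30 replicate 3. Unlike *bioB*, it was not called between the strains, with 0.10 ± 0.09 without CdCl2 (95% confidence interval -0.09 to 0.29) and 0.07 ± 0.09 with it (-0.12 to 0.26). Whether the strain differences of *bioB* and *bioDA* differ from each other was not tested. On the other side of *bioB* lies AN6642, which fell with CdCl2 in THS30 (-0.80 ± 0.23) and rose in TNJ92 (1.05 ± 0.24).

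**Figure D2:**
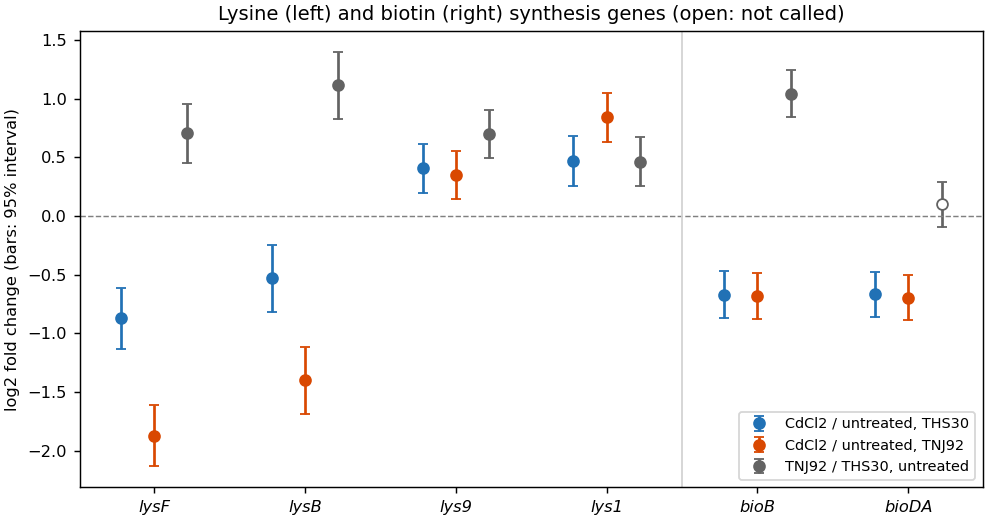
Log2 fold changes of the lysine genes *lysF*, *lysB*, *lys9* and *lys1* and of the biotin genes *bioB* and *bioDA*, with 95% confidence intervals; blue is CdCl2 against untreated in THS30, orange the same in TNJ92 and grey TNJ92 against THS30 without CdCl2, and open symbols did not pass the threshold. *lysF* and *lysB* lie below 0 in both responses and lower in TNJ92, *lys9* and *lys1* lie above 0, and *bioB* and *bioDA* have like responses in both strains.

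*aifA* was lower in TNJ92 in both conditions, and its response to CdCl2 was smaller there. The values were 231, 233 and 215 CPM in untreated THS30 and 99.8, 95.7 and 103 CPM in treated THS30. In TNJ92 they were 80.2, 80.0 and 72.2 CPM without CdCl2 and 69.8, 62.1 and 54.7 CPM with it. In these TMM-scaled values the 4 groups did not overlap, and each TNJ92 library, treated or not, was below each THS30 library. In the deposited RPKM, which is scaled to library totals, the untreated TNJ92 libraries (29.6 to 32.4) and the treated ones (23.9 to 32.3) overlapped.

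In THS30, *aifA* fell by 1.19 ± 0.09 on the log2 scale (standard error; adjusted p = 9.91e-08, edgeR), to a level 2.28 times lower, and the value was -1.27 without CdCl2-treated THS30 replicate 3. In TNJ92 the fall was 1.24 times, or -0.32 ± 0.09 (adjusted p = 0.00712, edgeR). That call did not hold when the counts were scaled by library totals in place of TMM, where the value was -0.16 (adjusted p = 0.171, edgeR). The difference between the responses was 0.87 ± 0.13 (95% confidence interval 0.60 to 1.14; adjusted p = 0.000115, edgeR), opposite in sign to that of *lysF*.

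Untreated TNJ92 had 2.92 times less *aifA* transcript than untreated THS30 (log2 fold change -1.55 ± 0.09; adjusted p = 2.04e-10, edgeR), and treated TNJ92 1.60 times less than treated THS30 (-0.68 ± 0.09; adjusted p = 8.07e-06, edgeR). The neighbours of *aifA* in the RefSeq gene order, AN9104 and AN9102, were not lower in untreated TNJ92: their values were 0.28 ± 0.11 and 1.16 ± 0.20, both called higher. *nde1* (AN6125), named in RefSeq after the external NADH dehydrogenase of yeast mitochondria, had -0.09 ± 0.08 and 0.04 ± 0.08 with CdCl2 in THS30 and TNJ92, without a call.

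AN11251 was the only one of the 4 genes to rise with CdCl2, from very few reads. Its read counts were 5, 7 and 4 in untreated THS30 and 49, 60 and 42 in treated THS30. In TNJ92 the counts were 8, 7 and 3 without CdCl2 and 58, 72 and 51 with it. Every treated library lay above every untreated one, and the strains overlapped in both conditions. In CPM, the group means were 0.516 ± 0.133 and 4.26 ± 0.474 in THS30 and 0.492 ± 0.231 and 4.54 ± 0.858 in TNJ92 (SD, n = 3).

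The log2 fold change of AN11251 was 3.03 ± 0.32 in THS30 (8.18-fold, adjusted p = 1.9e-06, edgeR) and 3.20 ± 0.30 in TNJ92 (9.22-fold, adjusted p = 1.45e-07, edgeR). No untreated library reached 10 counts and all 6 treated libraries did, so that without the treated groups the gene would not have been tested. The strains differed by -0.08 ± 0.47 without CdCl2 (95% confidence interval -1.07 to 0.90) and by 0.09 ± 0.21 with it (-0.36 to 0.54). The difference between the responses, 0.17 ± 0.52, had a 95% confidence interval from -0.92 to 1.26 (adjusted p = 0.843, edgeR). A difference of the size found for *aifA* lies within that interval, and the value of *lysF* lies just outside its lower bound.

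The gene that follows AN11251 in the RefSeq order, AN10331, moved with it. AN10331 had 14, 24 and 23 counts in untreated THS30, 95, 98 and 74 in treated THS30, 12, 11 and 18 in untreated TNJ92, and 80, 88 and 70 in treated TNJ92. Treated libraries of AN10331 were again all above the untreated ones. Its log2 fold change was 1.95 ± 0.20 in THS30 and 2.43 ± 0.21 in TNJ92, in both strains below that of AN11251, and this difference between the genes was not tested. The gene on the other side, AN2642, had 1 count in a single library and 0 in the other 11. None of the sources used here gives the strand setting of the counting, so reads from adjoining transcripts cannot be told apart, and their part in the counts of AN11251 was not tested.

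**Figure D3:**
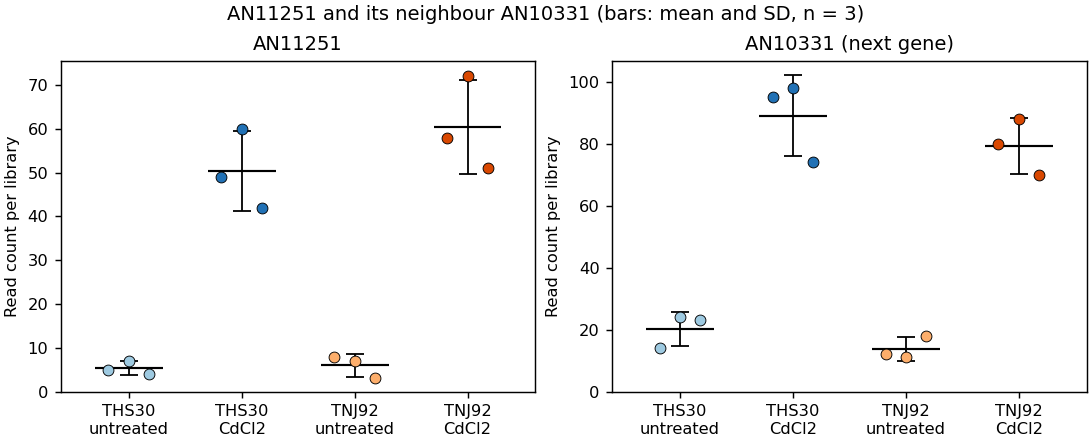
Read counts of AN11251 and of its neighbour AN10331 in each of the 12 libraries, by group; points are libraries, horizontal lines the mean and bars the SD (n = 3), and the axes start at 0. In both genes all treated libraries lie above all untreated ones, with at most 8 counts of AN11251 and at most 24 of AN10331 in an untreated library.

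**Figure D4:**
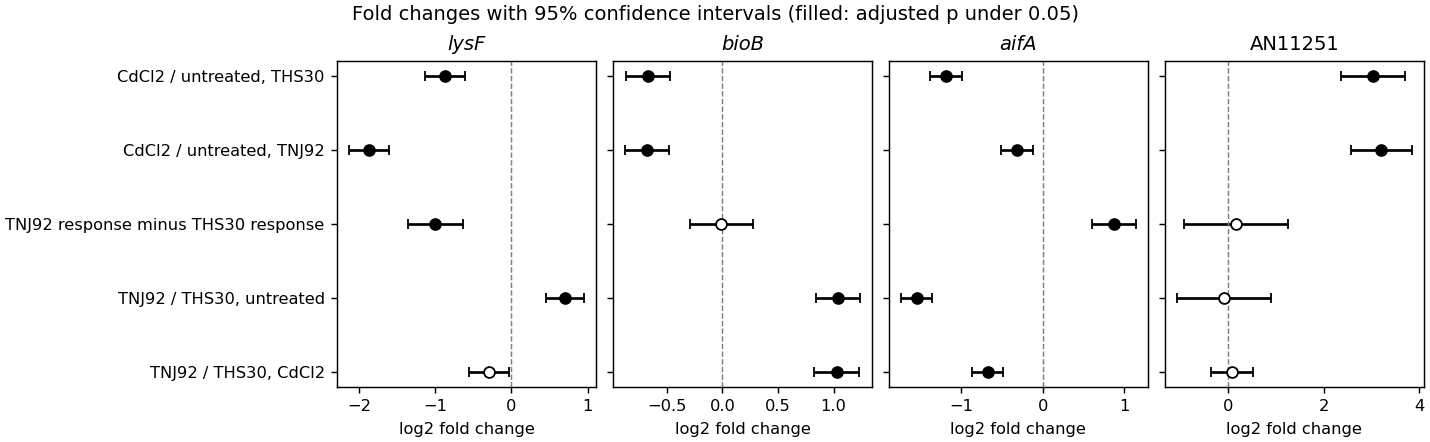
Log2 fold changes of the 4 genes in the 5 comparisons with 95% confidence intervals; filled points passed an adjusted p of 0.05 (edgeR) and open points did not, and each panel has its own horizontal scale. The difference between the responses lies at -1.0 for *lysF*, -0.01 for *bioB*, 0.87 for *aifA* and 0.17 for AN11251, with the widest interval for AN11251.

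The patterns of the 4 genes over the 12 libraries were unlike each other. Pearson's r of log2 CPM was 0.63 between *lysF* and *bioB*, 0.28 between *lysF* and *aifA*, and -0.35 between *bioB* and *aifA*. With AN11251, the values were -0.91 for *lysF*, -0.51 for *bioB* and -0.49 for *aifA*. These are descriptions over libraries that share 2 strains and 2 conditions. Of all genes tested, the pattern of *lysF* was most like those of AN0843, AN4777 and *erg20* (AN8012), each with r = 0.995. For *bioB* the nearest were AN3011 (r = 0.994), AN6344 (0.991) and AN10525 (0.988), for *aifA* AN3085 (0.983), AN3755 (0.98) and AN6418 (0.978), and for AN11251 AN4742 (0.988), AN5820 (0.983) and AN8634 (0.981). None of these 12 genes was among the Fe-S genes listed by the study. The list used below held only 46 of the 9070 genes tested, so this says little about the 4 genes.

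The 4 genes were set beside a list of 49 genes, made of the 47 that the study grouped as binding Fe-S clusters from their annotation and of 2 cysteine desulfurase genes. Of these, 46 passed the filter. With CdCl2, 9 were up-regulated and 17 down-regulated in THS30 (median log2 fold change -0.09 against 0.00 over all genes), and 9 and 21 in TNJ92 (median -0.17 against 0.00). The risen genes were 19.6% of the list in each strain, below the 22.5% and 28.3% of all genes, and the fallen ones 37% in THS30 and 45.7% in TNJ92, above the 21.5% and 28.2% of all genes; these shares were not tested against each other. With scaling by library totals, 13 of the 46 rose and 16 fell in THS30, and 11 and 17 in TNJ92. The shares of all genes moved with that scaling too, to 30.6% up and 14.9% down in THS30, and 36.5% and 20.2% in TNJ92. Without the 4 genes described here, 8 and 14 of 42 were called in THS30 and 8 and 18 in TNJ92. In both strains 17 genes of the list fell and 6 rose, and 1, AN3296, rose in THS30 and fell in TNJ92. Those that fell in both strains, which include *lysF*, *bioB* and *aifA*, were 37% of the list against 14.4% of all genes, and those that rose in both, which include AN11251, were 13% against 14.2%.

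By role, enzymes of carbon acids and of electron transfer held 9 of the 17 genes that fell in THS30 and 11 of the 21 in TNJ92, and 14 of the 46 tested; whether they fell more often than the rest of the list was not tested. Of the 6 aconitase-type and related genes that include *lysF*, 3 fell in THS30 and 4 in TNJ92, and 0 and 2 rose. The fallen genes were 50% and 66.7% of the class, against 21.5% and 28.2% of all genes. *acoA* (AN5525), the aconitase of the tricarboxylic acid cycle, had -2.34 ± 0.19 and -2.93 ± 0.19. *mcdB* (AN6639), a 2-methylcitrate dehydratase, had -1.37 ± 0.12 and -1.59 ± 0.12. *luA* (AN5886), the isopropylmalate isomerase of leucine synthesis and a close relative of *lysF* in enzyme type, had 0.15 ± 0.14 in THS30, without a call, and rose by 0.37 ± 0.14 in TNJ92. AN3894, an aconitate hydratase, fell in TNJ92 (-1.77 ± 0.18) and had -0.30 ± 0.17 in THS30, without a call, with a difference between the responses of -1.47 ± 0.24. In CdCl2-treated THS30 the libraries ran from 204 to 378 CPM for *acoA* and from 52.4 to 83.0 CPM for AN3894.

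Among the 8 electron transfer genes, which include *aifA* and AN11251, 6 fell in THS30 and 7 in TNJ92, and AN11251 was the only one that rose. The fallen genes, *aifA* among them, were 75% and 87.5% of the class, against 21.5% and 28.2% of all genes. These shares were not tested against each other. AN5629, annotated like AN11251 for NADH dehydrogenase (ubiquinone), fell by 0.54 ± 0.09 and by 0.99 ± 0.09, and AN2332, a succinate dehydrogenase gene, by 1.29 ± 0.12 and by 1.54 ± 0.12 on the log2 scale. Of the 6 genes for cofactors and tRNA that include *bioB*, 3 fell in each strain, and 1 rose in THS30 and 0 in TNJ92. The fallen genes were 50% of this class in each strain, against the same 21.5% and 28.2% of all genes. The ferrochelatase gene AN7752 of heme synthesis had values close to those of *bioB*, with -0.61 ± 0.11 in THS30 and -0.59 ± 0.11 in TNJ92.

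The 11 cluster assembly genes were called in both directions: 4 rose and 2 fell in THS30, and 3 rose and 2 fell in TNJ92. Apart from the rises in THS30, which were 36.4% of the class against 22.5% of all genes, these shares, 18.2% down in each strain and 27.3% up in TNJ92, were close to or below those of all genes. AN0447, an Fe-S cluster assembly gene, rose by 0.55 ± 0.10 and 0.75 ± 0.09, and the cysteine desulfurase ortholog AN2508 by 0.49 ± 0.09 and 0.35 ± 0.09. The other cysteine desulfurase ortholog, AN10584, had 0.12 ± 0.10 and 0.09 ± 0.10, without a call. AN10237, with a scaffold domain for assembly, fell by 0.98 ± 0.11 and by 1.02 ± 0.11. Both glutaredoxin genes rose in each strain, AN7567 by 1.21 ± 0.12 and 0.67 ± 0.12, and AN4304 by 0.32 ± 0.10 and 0.485 ± 0.098. The treated and untreated THS30 libraries of AN4304 overlapped. Of all genes, 22.5% rose in THS30 and 28.3% in TNJ92.

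**Figure D5:**
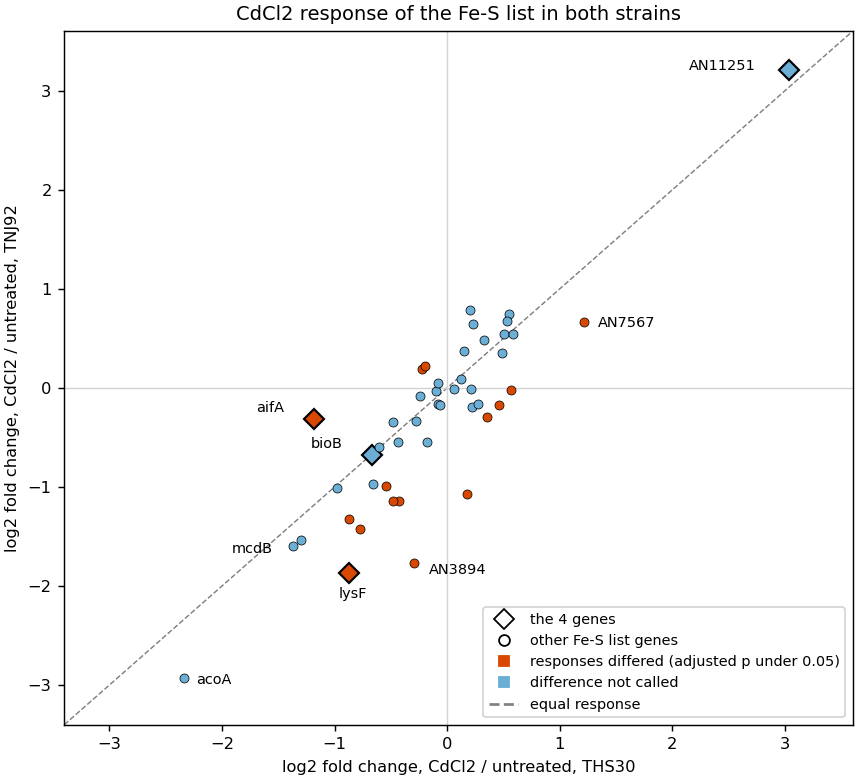
Log2 fold change with CdCl2 in THS30 (horizontal) and in TNJ92 (vertical) for the 46 Fe-S genes tested; diamonds are *lysF*, *bioB*, *aifA* and AN11251, orange marks genes whose responses differed between the strains at an adjusted p under 0.05, and the dashed line is an equal response. *lysF* lies below the line, *aifA* above it, *bioB* on it, and AN11251 at the upper right, far from all other genes of the list.

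In the difference between the responses, 15 of the 46 genes were called, 3 above 0 and 12 below, which is 6.52% and 26.1% of the list against 13.2% and 13.6% of all genes. *lysF* was among the 12, with AN3894, the electron transfer genes AN1915, AN2306, AN5629 and AN5703, and 6 others. *aifA* was 1 of the 3, beside AN11060 (0.42 ± 0.13) and AN2155 (0.41 ± 0.14), both of the cytosolic Nbp35-Cfd1 assembly complex. Of the 3, *aifA* alone fell in either strain. The count of 3 was 1 when any of 6 libraries was left out, namely untreated THS30 replicate 2 or 3, CdCl2-treated THS30 replicate 2, untreated TNJ92 replicate 1 and CdCl2-treated TNJ92 replicate 2 or 3.

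Between the untreated strains, 23 of the 46 Fe-S genes were higher and 8 lower in TNJ92, with a median log2 fold change of 0.31 against 0.03 over all genes. These are 50% and 17.4% of the list, against 32% and 29.6% of all genes. *lysF* and *bioB* were among the 23 and *aifA* among the 8. The value of *aifA*, -1.55 ± 0.09, was next to that of the xanthine dehydrogenase gene *hxA* (AN5613), with -1.42 ± 0.10, and of AN2779, with -1.66 ± 0.46. AN2779 had few reads, with 6 to 13 counts in the untreated THS30 libraries and 2 to 6 in the untreated TNJ92 libraries. *aifA* was the only one of the 8 electron transfer genes that was lower, and 5 were higher. With CdCl2, 14 were higher and 13 lower in TNJ92, with a median of 0.00; at 30.4% and 28.3% of the list these shares were near the 27.8% and 27.8% of all genes. *bioB* had the second highest value among these, after AN7611 (1.10 ± 0.12).

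Of 4 regulators of iron supply, looked up by symbol, 1 rose and 2 fell in THS30, and 1 rose and 3 fell in TNJ92. Calls were common among all genes as well, with 22.5% up and 21.5% down in THS30, and 28.3% and 28.2% in TNJ92. Whether the 4 regulators were called more often than other genes was not tested. *hapB* (AN7545) and *hapE* (AN6492), subunits of the CCAAT-binding complex, had -0.54 ± 0.11 and 0.46 ± 0.09 in THS30 and -0.42 ± 0.11 and 0.83 ± 0.09 in TNJ92, and *hapX* (AN8251), its partner under iron starvation, -0.49 ± 0.12 and -0.52 ± 0.12. Without CdCl2-treated THS30 replicate 3, the THS30 values were -0.68 for *hapB*, 0.48 for *hapE* and -0.61 for *hapX*, all still called. *sreA* (AN0176), the repressor of iron uptake, fell by 0.45 ± 0.08 in TNJ92 and had 0.10 ± 0.08 in THS30. Their part in the values of *lysF* was not tested.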

How the data were processed

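Whole mycelia of 4 groups with 3 biological replicates each were sequenced with TruSeq libraries as single reads, and the authors aligned them with HISAT2 2.1.0 to the FGSC A4 genome and used DESeq2 (1.20.0 in the submitters' processing notes). For the counting, the program and strand setting are not given in the sources consulted. The deposited table holds, per gene and library, the authors' raw read counts, the transcript length and RPKM values, which are counts divided by length and column total (largest relative difference 6.5e-15). RPKM was used only to compare levels between genes. No count was present for 239 genes.

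Genes were kept with filterByExpr (minimum count 10), scaled by TMM and fitted over the 12 libraries with the robust quasi-likelihood method of edgeR 4.0.16 in R 4.3.3. P-values were adjusted by Benjamini-Hochberg over 9070 genes, with 0.05 as the threshold. Standard errors were taken as |log2 fold change|/√F, and confidence intervals are at 95%. The TMM factors were 0.9325 to 1.10 and the common biological coefficient of variation 0.109. The fit was tried on simulated data in which few genes changed, equally up and down, in a single group. Calls were far more common in the real data, so this trial cannot tell how well the scaling worked there. Depth limits the precision of genes with few counts, such as AN11251.

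The members and lists were chosen with earlier results of these data known. Named are the 4 genes, the Fe-S list, their neighbours, the 3 genes with the highest Pearson's r of log2 CPM (prior count 2) for each, and checks of the labels. Planned lists by product name could not be applied, as the reference used carries no product names, so lysine, biotin, NADH dehydrogenase and iron regulator genes were looked up by RefSeq symbol (assembly ASM1142v1, names and gene order only) after the files had been seen; 10029 of 10988 identifiers matched. No sequences are shown. Alternatives were DESeq2 1.42.0, RLE scaling, scaling by library totals, no filter, only the 2 groups compared, a replicate block and each library left out in turn.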

Additional observations from a re-analysis of the deposited data

Results flagged for a closer look

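The response of *lysF* to CdCl2 was larger in TNJ92 than in THS30 by -1.0 ± 0.17 on the log2 scale (interaction test, adjusted p = 0.000439, edgeR), with a fall in each strain. The response of *aifA* was smaller in TNJ92, with a difference of 0.87 ± 0.13 (adjusted p = 0.000115, edgeR), also with a fall in each strain. Both are listed because the effect of the same treatment differed between the strains by the test of that difference.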

How the results depend on the processing

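The 20 values of the 4 genes were recomputed under 18 settings, 12 of which left out a library, which gave 355 values. Of these, 339 kept their direction and their side of the threshold. Scaling by library totals moved the median log2 fold change of all genes by 0.125 in THS30 and 0.147 in TNJ92, and with it the CdCl2 response of *aifA* in TNJ92 was -0.16 and no longer called. *lysF* between the treated strains ranged from -0.43 to -0.071 with a library left out and passed the threshold without CdCl2-treated THS30 replicate 1. The 14 changes of sign concerned values near 0 that passed no threshold in any setting. The difference between the responses of *bioB* was 0.0035 with RLE scaling, 0.018 with library totals, 0.0076 without the filter, and -0.086 to 0.091 with a library left out. For AN11251, leaving out a library gave -0.33 to 0.28 between the untreated strains, -0.067 to 0.20 between the treated strains and -0.19 to 0.42 for the difference between the responses. The count of Fe-S genes with a difference above 0 was 1 to 3 with a library left out. The cause of these shifts was not tested. The replicate numbers were not taken as pairs, since the labels give them no shared origin. Deviations of same-numbered libraries from their group means correlated at over 0.1 in 12 of 18 pairs (-0.134 to 0.319). Replicates 1 and 3 passed in all 6 pairs each and replicate 2 in 0 of 6. Of 12 libraries, 8 correlated best with their own number, which is a hint of structure by number in the data. Replicates 1 and 3 were at -0.313 to -0.109 to each other. Deviations sum to 0 within a group, so such negative values are in part built in. With the replicate block, *lysF* had -0.88 in THS30, -1.87 in TNJ92 and -0.99 for the difference, and no call on the 4 genes changed. Depth limits AN11251, with 3 to 8 counts in untreated libraries.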
